A study of Rattus norvegicus with 60 samples.

Results

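The striatum of rats that received lamotrigine was compared with that of rats injected with its vehicle. Of the 60 arrays of the series, 10 were chosen by their titles, 5 from lamotrigine rats and 5 from injection vehicle rats. Lamotrigine was given at 30 mg/kg under the skin once a day for 21 days, and the controls received vehicle injections over the same time. All rats were of the strain given as SD. What the vehicle was made of, and how old and of which sex the rats were, the sources used here do not say. In the labels the tissue is once called mouse and the delivery once constant, against rat as organism, a rat strain, a rat array and daily injections in the design text. Numbers in the descriptions of the samples were taken as those of the rats. They are 9, 10, 11, 13 and 14 for lamotrigine and 25 to 29 for vehicle, and by them the same 10 rats also gave hippocampus and cortex. Nothing else states that the samples of a group came from separate animals. The other 10 striatum arrays, 5 from rats with LiCl at 0.2% in chow and 5 from rats on vehicle chow, entered the fit only to estimate the spread.

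The striatum is built mostly of medium spiny neurons, which release GABA. Those of the direct pathway carry the dopamine receptor Drd1 and the peptides dynorphin and substance P, and those of the indirect pathway carry Drd2, the adenosine receptor Adora2a and enkephalin. Lamotrigine is given against seizures and in bipolar disorder. It is known to block voltage-gated sodium channels and to lower glutamate release, and it also acts on calcium channels and on the HCN channels that carry the hyperpolarization-activated current.

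Each of the 31042 probe sets that are not controls was compared on the log2 intensity scale with limma, in which 1 mean was fitted per group over the 20 striatum arrays. Each difference is lamotrigine minus vehicle, given ± the SE that limma estimated, and the Benjamini-Hochberg adjustment ran over all probe sets. A log2 intensity does not rank genes by abundance. In bulk tissue, fewer cells of a type and less RNA per cell cannot be told apart.

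The dissections carried the markers of the region. All 11 medium spiny neuron markers examined, among them Drd1, Drd2, Adora2a, Penk, Tac1 and the signalling protein Ppp1r1b, were higher on each of the 10 striatum arrays than on any of the 20 hippocampus and cortex arrays of the same rats. Drd1 lay between 11.56 and 12.11 in striatum and at most at 7.32 elsewhere. The smallest gap was that of Bcl11b, a transcription factor of these neurons that cortical neurons also use, with 0.40 between its lowest striatum value and its highest value elsewhere.

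The arrays differed in RNA of the choroid plexus, the tissue in the adjoining ventricle that makes cerebrospinal fluid. Ttr, transthyretin, is its most familiar product. Ttr was at 14.50, 9.17, 7.71, 14.49 and 8.17 in lamotrigine rats 9, 10, 11, 13 and 14, against 7.77, 14.66, 12.34, 11.21 and 8.64 in vehicle rats 25 to 29. Rats 9, 13 and 26 were high and rats 27 and 28 stood between them and the rest, so both groups covered nearly the same range. The difference was -0.12 ± 1.36 (SE), with a 95% interval from -2.95 to 2.72 and an adjusted p of 0.997 in limma, and an exact two-sided permutation test over 5 against 5 arrays gave p = 0.944, where the smallest p possible is 0.00794. In rats 9, 13 and 26, 15 of the 16 choroid plexus genes measured were above every other array of the 2 groups. Sostdc1, a secreted inhibitor of BMP and Wnt signals, was between 11.39 and 11.87 on those 3 arrays and between 4.31 and 7.14 on the other 7. Kcnj13, a potassium channel, was the exception and was lower on those 3 arrays, at 5.57 to 5.69, than on the other 7, at 5.79 to 6.0. The high rats were not the same in the other regions. Ttr in hippocampus was 8.02, 5.97 and 8.12 in rats 9, 13 and 26, and it was highest in vehicle rats 25 and 27, at 14.26 and 14.03.

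**Figure D1:**
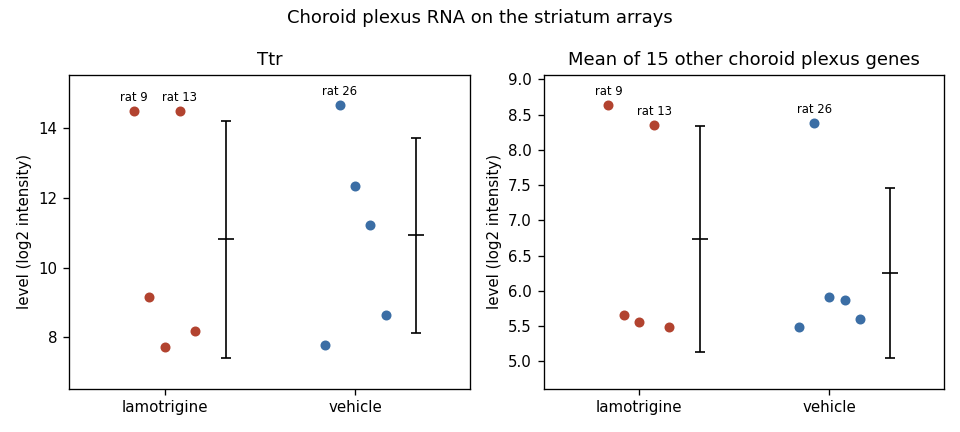
Level of Ttr (left) and mean level of 15 other choroid plexus genes (right) on each striatum array, in log2 intensity, for lamotrigine and vehicle; black bars give the mean and SD of 5 arrays. Rats 9 and 13 of the lamotrigine group and rat 26 of the vehicle group stand above the other arrays on both measures.

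No probe set passed the test for a difference between lamotrigine and vehicle. Of 31042 probe sets, 0 (0%) had an adjusted p under 0.05, and the smallest adjusted p was 0.136. At an unadjusted p under 0.05 there were 1193 probe sets (3.84%), of which 632 were higher with lamotrigine (2.04%) and 561 were lower (1.81%). The 2 groups did not overlap for 173 probe sets (0.557%), 86 higher and 87 lower. The median size of the difference was 0.063 and its 95th percentile was 0.24. The precision for single probe sets is given by the 95% intervals, which are not adjusted for the number tested. Their median half-width was 0.20, a factor of 1.14. The interval lay wholly within 1.5-fold in either direction for 29343 probe sets (94.5%) and within 1.2-fold for 15326 (49.4%). The same fit called 2119 probe sets (6.83%) between injection vehicle and chow vehicle, 2 groups of the same region.

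Genes are described below with 1 probe set each, the one with the highest mean level in striatum, for 14224 genes. Among these, 464 (3.26%) had an unadjusted p under 0.05, 322 higher with lamotrigine (2.26%) and 142 lower (0.998%), the groups of 69 (0.485%) did not overlap, and the median difference was 0.017, with 57.8% of genes above 0. The counts of each gene list below are to be read against these shares. Of the genes in the 38 lists, 0 passed the test at an adjusted p under 0.05.

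**Figure D2:**
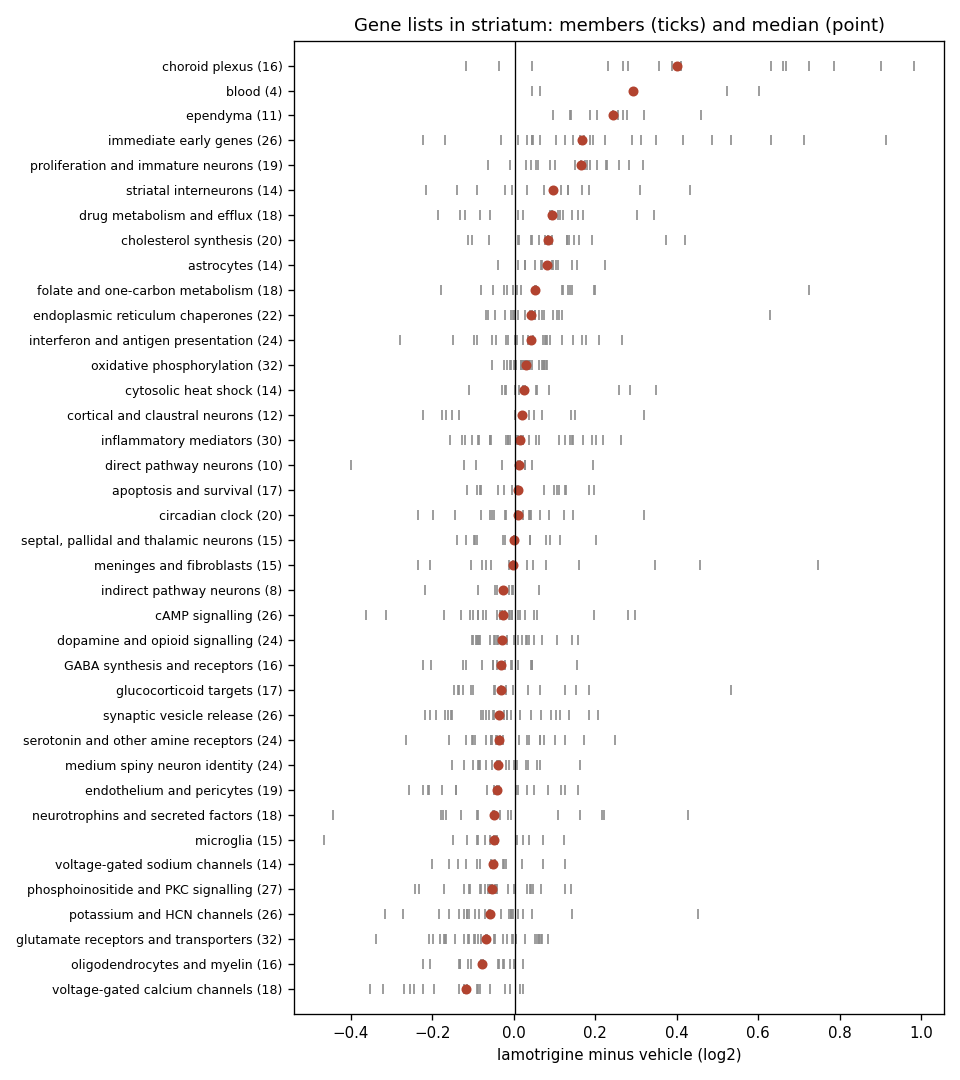
Difference between lamotrigine and vehicle in striatum (log2) for every measured member of the 38 gene lists (grey ticks), with the median of each list (red point), the number of genes measured in brackets, and the median over all probe sets as the vertical line. Choroid plexus, at 0.40, has the highest median and voltage-gated calcium channels, at -0.12, the lowest.

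The voltage-gated sodium channels, the main known target of lamotrigine, lay close to vehicle. Of 16 listed genes for channel subunits and for proteins that anchor or bind them, 14 were measured. Of these, 3 were higher and 11 lower with a median of -0.05, 0 had an unadjusted p under 0.05, and for all 14 the 95% interval excluded a difference of 1.5-fold. The median was -0.13 without vehicle rat 28 and -0.03 without vehicle rat 27. Scn2a, the channel subunit of axon initial segments, was at 9.77, 10.16, 9.43, 9.57 and 9.83 in lamotrigine rats 9, 10, 11, 13 and 14, against 9.90, 9.89, 9.98, 9.53 and 9.75 in vehicle rats 25 to 29. The ranges overlapped almost wholly, and the difference was -0.06 ± 0.14. Scn1a differed by -0.03 ± 0.12, Scn3a by 0.02 ± 0.14 and Scn4b, a beta subunit abundant in striatal neurons, by -0.08 ± 0.10. Scn8a had the largest difference of the list, -0.20 ± 0.14, with a mean of 6.24 ± 0.29 in lamotrigine rats and 6.44 ± 0.18 in vehicle rats (SD, n = 5 each).

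Calcium channel genes had the lowest median of the lists with all arrays. Of 18 genes, 16 were lower and 2 higher with lamotrigine, the median was -0.12, and 3 had an unadjusted p under 0.05, all of them lower. Without the arrays high in Ttr 14 of 18 were lower, 0 had an unadjusted p under 0.05, and the median was -0.08, above those of 4 other lists. The median was -0.21 without vehicle rat 28, -0.20 without lamotrigine rat 10 and -0.07 without vehicle rat 25. Cacna1a, the pore of P/Q-type channels that trigger transmitter release, was at 6.01, 6.69, 6.48, 6.27 and 6.79 in lamotrigine rats, against 6.78, 7.02, 7.17, 6.32 and 6.70 in vehicle rats. Lamotrigine rats 9 and 13 lay below the vehicle range, whose lowest value was that of rat 28, and the other 3 inside it. The difference was -0.35 ± 0.15, and 3 of the 4 other Cacna1a probe sets were also lower. The remaining one, the brightest of those 4, differed by 0.001 ± 0.085. Without the 3 arrays high in Ttr, and the 2 such arrays of the LiCl group, the difference was -0.09. Cacna1e, the pore of R-type channels, was at 5.88, 5.95, 5.99, 5.93 and 6.03 in lamotrigine rats, against 6.06, 6.13, 6.59, 6.18 and 6.08 in vehicle rats. All lamotrigine arrays were below all vehicle arrays, though narrowly, and vehicle rat 27 stood above the rest. The difference was -0.25 ± 0.11, and it was -0.16 without rat 27. Cacna2d1, an auxiliary subunit that gabapentin binds, differed by -0.32 ± 0.15 with overlapping groups. In hippocampus Cacna1a was instead 0.27 ± 0.15 above vehicle and in cortex it was at -0.09 ± 0.08.

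Other genes of excitability and transmission lay close to vehicle. Of 26 potassium and HCN channel genes, 5 were higher and 21 lower, with a median of -0.06 and 0 at an unadjusted p under 0.05. Hcn2 differed by -0.08 ± 0.07. Of 32 genes for glutamate receptors, transporters and scaffolds, 9 were higher and 23 lower, and Gria3, an AMPA receptor subunit, had an unadjusted p under 0.05 at -0.20 ± 0.08. The GABA list had 5 higher and 11 lower of 16, and the GABA-synthesizing enzymes Gad1 and Gad2 differed by -0.05 ± 0.05 and -0.12 ± 0.14. Of 26 genes of synaptic vesicle release, 9 were higher and 17 lower (median -0.04), and without the arrays high in Ttr 15 were higher and 11 lower (median 0.05). Complexin 2 (Cplx2), a regulator of vesicle fusion, had groups that did not overlap and a difference of -0.21 ± 0.08.

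Medium spiny neuron genes lay close to vehicle. All 24 genes measured of the identity list had 95% intervals within 1.5-fold, 0 had an unadjusted p under 0.05, and their median was -0.04. It was -0.10 without vehicle rat 28 and 0.03 without lamotrigine rat 11. Drd1 was at 11.91, 12.10, 11.56, 11.92 and 11.94 in lamotrigine rats, against 11.86, 12.09, 12.11, 11.87 and 11.94 in vehicle rats. Only rat 11 lay outside the vehicle range, and the difference was -0.09 ± 0.13. Drd2 differed by -0.04 ± 0.11, Penk by -0.09 ± 0.08, Pdyn by 0.01 ± 0.13, Tac1 by 0.03 ± 0.18 and Ppp1r1b by 0.03 ± 0.06. The direct pathway list held 1 gene with an unadjusted p under 0.05. Slc35d3, which in mice is needed for D1 receptor to reach the cell surface, was at 9.22, 9.31, 8.92, 9.45 and 8.93 in lamotrigine rats, against 9.59, 9.58, 9.81, 9.51 and 9.33 in vehicle rats. Rat 29 of the vehicle group fell within the lamotrigine range and the other 4 lay above it. The difference was -0.40 ± 0.13, with an adjusted p of 0.997. Of 14 interneuron genes 9 were higher and 5 lower, and without the arrays high in Ttr all 14 were higher. Chat, the enzyme that makes acetylcholine, was 0.31 ± 0.11 above vehicle with overlapping groups, and 0.15 above it without the arrays high in Ttr.

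Immediate early genes, which neurons switch on within minutes of activity, were the list with the most members at an unadjusted p under 0.05. Of 26 genes measured, 23 were higher with lamotrigine, the median was 0.17, and 6 had an unadjusted p under 0.05, all higher: the transcription factors Fos, Junb and Klf2, the synaptic protein Arc, the phosphatase Dusp1 and the kinase Sik1. Klf2 differed by 0.49, but its other probe sets gave 0.08 ± 0.11, 0.09 ± 0.10, 0.08 ± 0.07 and 0.49 ± 0.19. The other probe sets of Dusp1 and Sik1 gave 0.49 ± 0.27 and 0.26 ± 0.20. The promoters of Dusp1 and Junb are shown for the cAMP response element, through which CREB acts on many genes of this class. The whole element can be read in Dusp1, and only its first part in Junb. Capitals mark TGACGTCA in Dusp1 and its first 5 letters, TGACG, in Junb. Each window runs from 250 bases before to 50 after the start in RefSeq, build GRCr8, at chr10:17184603-17184902 (plus strand) for Dusp1 and chr19:40080876-40081175 (plus strand) for Junb.
Dusp1: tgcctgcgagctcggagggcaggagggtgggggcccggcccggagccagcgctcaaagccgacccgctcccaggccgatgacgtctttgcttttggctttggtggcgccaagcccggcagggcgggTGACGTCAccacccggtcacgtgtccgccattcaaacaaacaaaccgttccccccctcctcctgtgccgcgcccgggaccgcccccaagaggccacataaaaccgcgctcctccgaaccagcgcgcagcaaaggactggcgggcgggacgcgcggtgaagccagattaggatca
Junb: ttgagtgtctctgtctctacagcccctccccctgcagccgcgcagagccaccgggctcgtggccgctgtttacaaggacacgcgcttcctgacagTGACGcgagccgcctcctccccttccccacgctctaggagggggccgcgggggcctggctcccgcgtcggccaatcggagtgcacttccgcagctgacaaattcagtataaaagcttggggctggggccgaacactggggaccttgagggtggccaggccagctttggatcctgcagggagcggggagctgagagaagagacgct

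RefSeq gave windows for 19 of the 26 genes, not for Fos or Arc. TGACGTCA, the same on both strands, was in the windows of 3 of them, Dusp1, Ier2 and Jund, and in 1.83% of all 33469 windows. TGACG on either strand, which TGACGTCA contains, was in those of 12 genes and in 21.2% of all windows. A gene was counted if any of its windows held the motif, whereas the percentages count single windows, so these are unlike measures.

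The immediate early genes divided the lamotrigine rats. Fos was at 9.82, 10.07, 9.72, 8.21 and 7.19 in lamotrigine rats 9, 10, 11, 13 and 14, against 8.47, 7.74, 7.77, 8.0 and 8.47 in vehicle rats 25 to 29. Rats 9, 10 and 11 were above every vehicle rat, rat 13 lay within the vehicle range and rat 14 below it. The difference was 0.91 ± 0.41, with a 95% interval from 0.06 to 1.76 and an adjusted p of 0.997. The second Fos probe set, which was dimmer, gave -0.06 ± 0.11. Arc was at 9.82, 10.33, 9.53, 8.47 and 8.44 in lamotrigine rats, against 9.22, 8.53, 8.26, 8.26 and 8.75 in vehicle rats. Junb was at 9.60, 9.74, 9.34, 8.68 and 8.68 in lamotrigine rats, against 8.65, 8.69, 8.49, 8.28 and 8.78 in vehicle rats. The same 3 rats were high in both genes and the same 2 were at vehicle levels. Arc differed by 0.71 ± 0.31 and Junb by 0.63 ± 0.20. Egr1, a zinc finger transcription factor of this class, was at 11.99, 12.20, 11.85, 11.36 and 11.54 in lamotrigine rats, against 11.87, 11.86, 11.66, 11.64 and 12.07 in vehicle rats. Rats 9, 10 and 11 were again above rats 13 and 14, which lay below every vehicle rat, and the difference of the means was -0.03 ± 0.14. The median of the list was 0.17 with all arrays, 0.04 without rat 10, 0.11 without rat 9 and 0.28 without rat 14. Rats 9 and 13, the 2 lamotrigine rats high in Ttr, fell on opposite sides of this division, and without the arrays high in Ttr 24 of 26 genes were higher and 5 had an unadjusted p under 0.05.

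The lamotrigine rats were divided in the same way in the other regions, which come from the same animals and are no separate test. The mean level of the 26 genes in striatum was 8.34, 8.63, 8.28, 7.78 and 7.66 in lamotrigine rats, against 7.99, 7.81, 7.80, 7.88 and 8.08 in vehicle rats. In cortex it was 8.56, 8.71, 8.53, 8.13 and 8.10 in lamotrigine rats, against 8.27, 8.28, 8.17, 8.16 and 8.45 in vehicle rats. In hippocampus it was 8.10, 8.24, 8.04, 7.86 and 7.97 in lamotrigine rats, against 7.97, 7.76, 7.79, 7.90 and 7.80 in vehicle rats. Rats 9, 10 and 11 were above every vehicle rat in each of the 3 regions, and rats 13 and 14 were not, apart from a tie of rat 14 with rat 25 in hippocampus. The division of the lamotrigine rats was thus seen in each of their dissections.

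**Figure D3:**
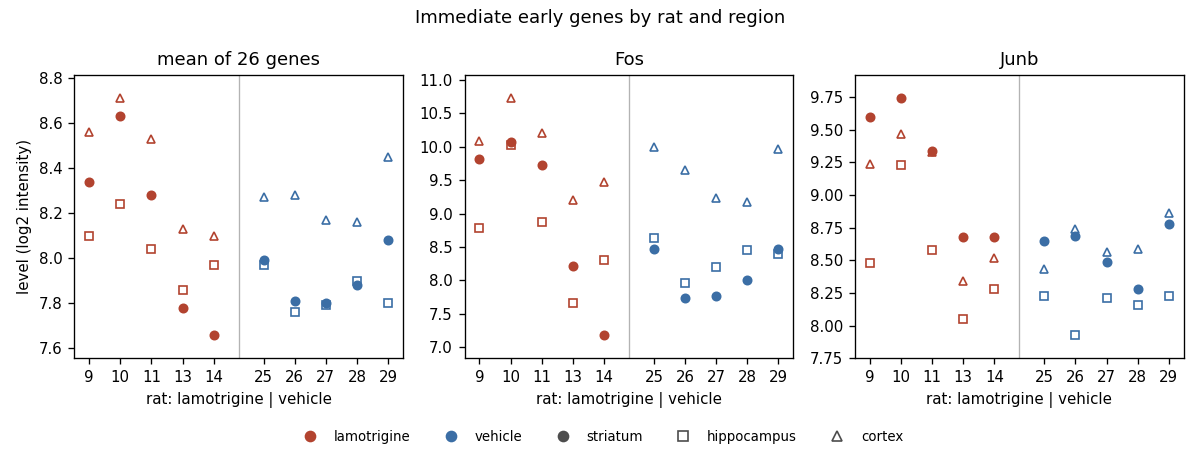
Mean level of 26 immediate early genes, and levels of Fos and Junb, in log2 intensity, by rat number, with lamotrigine rats (red) left of vehicle rats (blue); filled circles are striatum, open squares hippocampus and open triangles cortex. Lamotrigine rats 9, 10 and 11 lie above rats 13 and 14 in each panel and region.

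Further genes were chosen by size and by separation, whether or not a list held them. With a difference of at least 0.3 and groups that did not overlap, 8 genes were higher and 3 lower, and their values are described without a call. The smallest adjusted p, 0.136, was that of LOC100911946, a long noncoding RNA. It was at 5.10, 5.03, 4.84, 4.91 and 5.15 in lamotrigine rats, against 4.59, 4.59, 4.48, 4.66 and 4.51 in vehicle rats. Each group was compact and all lamotrigine arrays lay above all vehicle arrays. The difference was 0.44 ± 0.07. These signals are dim, and the difference became 0.28 when 16 was added to each intensity. With probe sets of a mean level under 6 left out, this one among them, the smallest adjusted p in limma was 0.995. The chow vehicle arrays of striatum, at 4.95 to 5.17, lay above every injection vehicle array and overlapped the lamotrigine arrays. The difference was 0.16 ± 0.12 in hippocampus and 0.29 ± 0.11 in cortex, with groups that overlapped in both.

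Steap4, a metalloreductase of the cell surface, was at 4.35, 4.20, 4.25, 4.19 and 3.98 in lamotrigine rats, against 3.86, 3.58, 3.55, 3.63 and 3.39 in vehicle rats. These are dim signals, and the difference of 0.59 ± 0.17 became 0.28 when 16 was added to each intensity. Rd3l was at 7.33, 7.39, 7.89, 7.95 and 7.55 in lamotrigine rats, against 7.17, 6.70, 6.67, 7.26 and 7.26 in vehicle rats, a difference of 0.61 ± 0.18. The lowest lamotrigine rat, rat 9, was only just above the highest vehicle rats, 28 and 29. In hippocampus Rd3l differed by 0.09 ± 0.11 and in cortex by 0.27 ± 0.10. Bphl, a serine hydrolase that activates ester prodrugs, was at 8.17, 8.41, 8.41, 8.50 and 8.34 in lamotrigine rats, against 7.65, 8.02, 8.01, 7.70 and 8.09 in vehicle rats. Its difference was 0.47 ± 0.16 in striatum, 0.33 ± 0.17 in hippocampus and 0.48 ± 0.19 in cortex, although chow vehicle arrays of striatum ranged from 7.54 to 8.59, wider than both groups. The other genes on the higher side were Rln1 (relaxin), Pcdhb6, Kntc1 and P2ry1, with differences from 0.30 to 0.46. Of these, Rln1, Pcdhb6 and P2ry1 were dim. P2ry1 differed by 0.46 ± 0.24, with a 95% interval from -0.035 to 0.965 that includes 0. Its chow vehicle arrays of striatum ranged from 4.75 to 6.34, wider than both groups. Pcdhb6 is an adhesion protein of the beta protocadherin cluster, whose members are much alike in sequence, so its signal is uncertain. Kntc1 is a kinetochore protein and P2ry1 a receptor for ADP.

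P2ry12, the ADP receptor through which microglia sense injury, was lower with groups that did not overlap. It was at 8.87, 8.59, 8.61, 8.84 and 8.91 in lamotrigine rats, against 9.03, 9.07, 9.14, 9.65 and 9.26 in vehicle rats. The difference was -0.47 ± 0.10 with an adjusted p of 0.997, and the second P2ry12 probe set gave -0.46 ± 0.13. In the other regions of the same rats the difference was -0.62 ± 0.15 in hippocampus and -0.57 ± 0.14 in cortex. The groups overlapped there through 1 pair each, lamotrigine rat 9 at 9.05 and vehicle rat 25 at 9.03 in hippocampus, and lamotrigine rat 14 at 9.05 and vehicle rat 28 at 8.91 in cortex. Of 15 microglia genes 5 were higher and 10 lower, with a median of -0.05 and P2ry12 as the 1 gene with an unadjusted p under 0.05, and the fractalkine receptor Cx3cr1 was 0.12 ± 0.06 above vehicle. Without the arrays high in Ttr 11 of 15 were lower (median -0.12), and the median was 0.04 without vehicle rat 28. In hippocampus 2 of 15 were higher (median -0.12) and in cortex 2 of 15 (median -0.11). The chow vehicle arrays of striatum, at 8.78 to 9.05 for P2ry12, overlapped both injected groups.

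Dhx36, a helicase that unwinds folded guanine-rich nucleic acids, was at 10.28, 10, 9.93, 10.10 and 10.02 in lamotrigine rats, against 10.30, 10.47, 10.42, 10.37 and 10.43 in vehicle rats. Rat 9 was just under the lowest vehicle rat and the others lay further below. The difference was -0.33 ± 0.09, and all 4 other Dhx36 probe sets were lower, with differences from -0.73 to -0.06. The chow vehicle arrays of striatum, at 9.81 to 10.24, lay below every injection vehicle array and overlapped the lamotrigine arrays. The third gene on this side, G2e3, a ubiquitin ligase, was dim and differed by -0.32 ± 0.11. Its chow vehicle arrays, at 4.63 to 4.94, also lay below every injection vehicle array and overlapped the lamotrigine arrays.

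**Figure D4:**
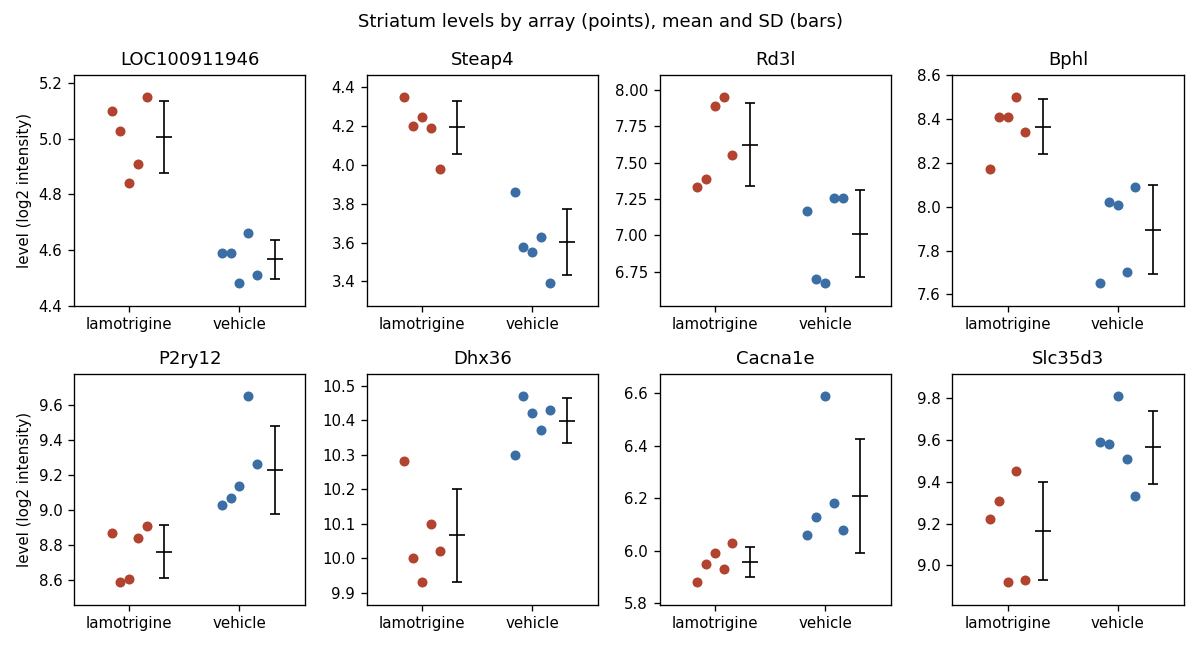
Levels of 8 genes on the striatum arrays in log2 intensity, lamotrigine (red) and vehicle (blue), with black bars for the mean and SD of 5 arrays; the axes do not start at 0. LOC100911946, Steap4, Rd3l and Bphl are higher and P2ry12, Dhx36 and Cacna1e lower with lamotrigine without overlap, and Slc35d3 overlaps through vehicle rat 29.

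Some wide differences had levels in 2 clusters that belonged to the rat and not to the region, and others followed the arrays high in Ttr. Hyou1, a chaperone of the endoplasmic reticulum, was at 8.46, 8.60, 8.39, 8.49 and 8.27 in lamotrigine rats, against 7.48, 7.74, 7.68, 8.49 and 7.67 in vehicle rats. Vehicle rat 28 lay with the lamotrigine rats and above the other vehicle rats. The chow vehicle arrays of striatum, at 8.13 to 8.93, were all above those other 4 vehicle rats and overlapped the lamotrigine range. The same rat was at 8.36 in hippocampus and at 8.35 in cortex, where the other vehicle rats were at most at 7.75 and 7.64. The difference was 0.63 ± 0.16 in striatum, 0.56 ± 0.11 in hippocampus and 0.61 ± 0.13 in cortex. Of the 22 endoplasmic reticulum chaperone genes, Hyou1 alone had an unadjusted p under 0.05, and the median of the list was 0.04.

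Kcnip1, a subunit that modulates A-type potassium channels, had levels of 7.90, 7.90, 8.15, 8.42 and 8.09 in lamotrigine rats, against 7.31, 7.12, 7.10, 8.22 and 8.45 in vehicle rats. Vehicle rat 28 was in the lamotrigine range in striatum and rat 29 just above it, and they were also the highest of the vehicle rats in hippocampus and cortex. The widest difference of all probe sets, 1.78 ± 0.47, was that of a probe set that is unnamed here and was picked out after its values were seen. It was at 8.15, 8.19, 7.98, 7.92 and 7.41 in lamotrigine rats, against 6.04, 5.56, 5.42, 5.80 and 7.95 in vehicle rats. Vehicle rat 29 lay with the lamotrigine rats, and it did so in hippocampus at 8.12 and in cortex at 8.05. A Jund probe set, chosen in the same way, differed by 1.35 ± 0.47 in striatum with vehicle rats 26 and 28 at lamotrigine levels, whereas the brightest Jund probe set differed by 0.17 ± 0.13. Cltrn, Mfrp and Cldn2, also among the widest, differed by 1.08 ± 1.28, 0.99 ± 1.29 and 0.98 ± 1.17. Their high values were those of rats 9, 13 and 26, whose striatum arrays were high in Ttr. In hippocampus these 3 genes differed by -1.16, -1.35 and -1.01.

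**Figure D5:**
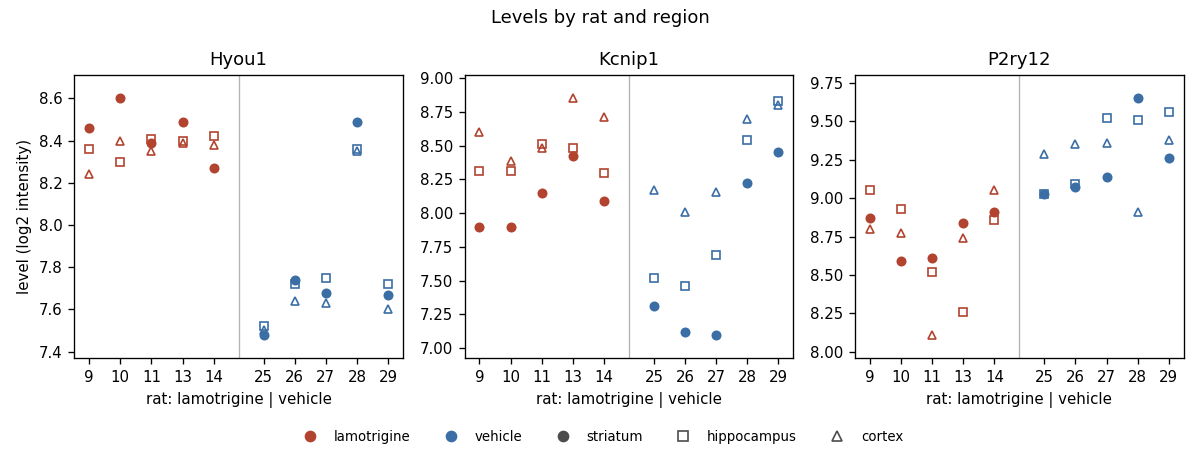
Levels of Hyou1, Kcnip1 and P2ry12 in log2 intensity by rat number, lamotrigine rats (red) left of vehicle rats (blue); filled circles are striatum, open squares hippocampus and open triangles cortex. For Hyou1, vehicle rat 28 lies with the lamotrigine rats in all 3 regions and the other 4 vehicle rats lie at or below 7.75.

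Red blood cell genes lay on the higher side with lamotrigine. Of 10 listed genes 4 were measured, and all 4 were higher, 2 of them with an unadjusted p under 0.05, and the mean level of the list was between 7.44 and 7.70 in lamotrigine rats and between 7.13 and 7.42 in vehicle rats, so the groups did not overlap. Hbb, a beta globin whose probes other globin genes may share, was at 12.57, 12.85, 12.92, 12.41 and 12.83 in lamotrigine rats, against 12.07, 12.01, 12.09, 12.50 and 11.89 in vehicle rats. Lamotrigine rat 13 lay below vehicle rat 28 and every other lamotrigine rat lay above it. The difference was 0.60 ± 0.19. Alas2, the enzyme that starts haem synthesis in red cells, differed by 0.52 ± 0.21. The remaining genes, Slc4a1 and Ahsp, lay near vehicle, with differences of 0.06 and 0.05. Taken singly, 0 of the 4 genes had groups that did not overlap. In hippocampus Hbb differed by 0.77 ± 0.23 and in cortex by 0.33 ± 0.16.

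The lists of ventricular and dividing cells had other counts without the arrays high in Ttr, as the choroid plexus list itself did, with 14 of 16 genes higher with all arrays and 4 of 16 without those. The arrays that remained were not balanced either, since vehicle rats 27 and 28 were among them, and Ttr then differed by -1.64. All 11 ependyma genes measured, which build the cilia of the cells lining the ventricle, were higher with lamotrigine, with a median of 0.24 and 0 at an unadjusted p under 0.05. The mean level of the list was 7.06, 6.34, 6.03, 6.99 and 5.50 in lamotrigine rats, against 5.78, 6.46, 5.91, 6.34 and 6.24 in vehicle rats. Rats 9 and 13 were the highest lamotrigine rats and rat 26 was the highest vehicle rat. A fit with Ttr as a covariate left the count at 11 of 11. That fit could hardly change such a count, since Ttr differed by only -0.12 between the groups. In it the choroid plexus list itself kept 14 of 16 genes higher, with a median of 0.45. An unchanged count in that fit therefore decides nothing about choroid plexus RNA. Without the arrays high in Ttr, 1 of 11 ependyma genes was higher and 10 were lower, with a median of -0.08. The same held for proliferation and immature neuron genes, of which 17 of 19 were higher (median 0.16) with all arrays and 8 of 19 without those high in Ttr (median -0.03), and in part for astrocyte genes, with 13 of 14 (median 0.08) and 8 of 14 (median 0.02). With Ttr as a covariate these counts were 17 of 19 and 13 of 14. In the first of these lists the cell cycle genes Ccnb1 and Bub1b had an unadjusted p under 0.05, at 0.28 ± 0.11 and 0.23 ± 0.10. The second Ccnb1 probe set, which was dimmer, gave 0.02 ± 0.12.

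The remaining lists showed small differences on both sides. Of 16 oligodendrocyte and myelin genes 14 were lower, with a median of -0.08. The median was 0.02 without vehicle rat 28 and -0.18 without lamotrigine rat 11, and without the arrays high in Ttr 15 of 16 were lower (median -0.13). Oxidative phosphorylation had 26 of 32 genes higher, but by a median of 0.03 only, and all 32 intervals lay within 1.5-fold. Cholesterol synthesis had 17 of 20 higher with 0 at an unadjusted p under 0.05. Folate and one-carbon metabolism had 12 of 18 higher and 0 at an unadjusted p under 0.05. Inflammatory mediators were 17 higher and 13 lower of 30, and interferon and antigen presentation genes 16 and 8 of 24. Of 18 neurotrophins and secreted factors 5 were higher and 13 lower, with a median of -0.05. Among the higher ones, Bdnf was at 6.10, 6.26, 6.18, 6.23 and 6.38 in lamotrigine rats, against 5.88, 6.03, 6.04, 6.07 and 6.03 in vehicle rats. The groups just failed to overlap and the difference was 0.22 ± 0.08, while the second Bdnf probe set, which was dimmer, gave -0.01 ± 0.38.

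Whether the effect of lamotrigine in striatum differed from that in the other regions was tested directly. The striatum difference minus the mean of the hippocampus and cortex differences was fitted over all 60 arrays in 12 groups, with the rat as a random block. Of 31042 probe sets 0 (0%) had an adjusted p under 0.05, and 1623 had an unadjusted p under 0.05. The smallest adjusted p was 0.897. For Fos this difference was 0.54 ± 0.37, for Cacna1a -0.44 ± 0.15, for Rd3l 0.43 ± 0.16, for P2ry12 0.13 ± 0.16 and for Hyou1 0.04 ± 0.15.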

How the data were processed

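RNA from striatum, hippocampus and cortex was measured on Affymetrix arrays, 1 per sample. Per the submitters' processing notes the deposited values are intensities, made by the authors by means of RMA under R 2.7.2. They are on a linear scale, so log2 was taken with no pseudocount. Array medians were 93.8 to 101.4. RMA brings arrays to a common distribution, which can shift values where many probe sets change together. The number of arrays limits the precision. The 57 control probe sets were left out. Symbols came from the platform annotation and were updated through Entrez IDs for 20758 probe sets. Of all tested, 20837 had 1 symbol, 425 several and 9780 none, and the last 2 kinds were not named as genes. Groups were taken from the titles. Tests used limma 3.58.1 in R 4.3.3 (lmFit, eBayes with an intensity trend) with version 1.17.8 of data.table for reading, two-sided, and were checked on simulated data. The correlation within rats was 0.133. Genes were named where called, where groups differed by at least 0.3 without overlap (up to 12 per direction), among the 4 smallest p-values of a list, or from a fixed set, of which some genes are not reported here. Sostdc1, Kcnj13, Bcl11b, Cltrn, Mfrp, Cldn2, the Jund probe set and the unnamed probe set were picked after their values were seen. The members and the gene lists were chosen with earlier results of these data known. The paper supplied with the series describes another experiment and gave no method.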

Additional observations from a re-analysis of the deposited data

Results flagged for a closer look

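In 80 groups of 5 levels examined (34 genes and 6 list means, in each of the 2 groups), 7 held 1 array that stood far from the other 4, where chance gives about 1 in 20 groups. Vehicle rat 26 had a mean choroid plexus level of 8.77, against 6.31 for the next vehicle rat. Vehicle rat 28 had Hyou1 at 8.49, with the next vehicle rat at 7.74, and Sik1 at 6.69, with the next at 7.14. Vehicle rat 25 had Scn1a at 10.05, with the next at 9.67, and Bdnf at 5.88, with the next at 6.03. Vehicle rat 27 had Cacna1e at 6.59, with the next at 6.18. Lamotrigine rat 11 had Rln1 at 5.81, with the next lamotrigine rat at 5.36.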

How the results depend on the processing

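The count of 0 probe sets for lamotrigine against vehicle was 0 under every alternative run but array weights. The alternatives covered normalization, centring, a pseudocount of 16, a filter on levels under 6, the arrays in the fit, the variance model, covariates for interquartile range, GAPDH 3' minus 5' signal and Ttr, the 5 striatum arrays with Ttr over 2 above the median left out, 2 other call rules, and each of the 10 arrays left out in turn (lowest and highest 0). Array weights gave 1, LOC100911946 (adjusted p = 0.0354), while the smallest adjusted p of any probe set lay between 0.0601 and 0.999 under the others. The count at an unadjusted p under 0.05, 1193, was 2956 with array weights, 671 with dim probe sets left out (fewer probe sets tested), 2367 without lamotrigine rat 14 and 2455 without vehicle rat 28, and the cause of the last 2 and of the first was not tested. The replicate number of the titles as a block gave 0 called and a Ttr difference of -0.12. The numbers do not pair the rats: same-numbered arrays deviated with r from -0.54 to 0.22, and 0 of 5 lamotrigine arrays correlated best with their own number. The region difference gave 0 under every alternative run. Ttr, which did not pass the test in any fit, was 1.55 with array weights, -1.64 with the arrays high in Ttr left out, and from -1.04 to 0.82 with 1 array left out, so its sign turned (0.29, 0.66 and 0.54 without lamotrigine rats 10, 11 and 14, and 0.82 and 0.24 without vehicle rats 26 and 27). Of 4093 values of 172 other genes, 52 had the other sign, 0 of them for the 35 genes with an unadjusted p under 0.05. Of 950 list medians 65 had the other sign. The median half-width of the confidence interval was a factor of 1.14. At that width, smaller differences could not be told from 0 with 5 arrays a group, and where the interval was wider the same held for larger differences. That limit is for 1 probe set taken alone. A call over 31042 probe sets needed more, as P2ry12, at -0.47 ± 0.10, had an adjusted p of 0.997 in limma.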
